A study of Homo sapiens with 6 samples.

Results

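The hypoxia response genes described here are 10 targets of the hypoxia-inducible factors (HIF), chosen by name: ADM, P4HA1, BHLHE40, VEGFA, CA9, BNIP3, NDRG1, EGLN3, ANKRD37 and KDM3A. These 10 and the gene lists below were chosen with earlier results of these data known. Each of the 10 matched 1 of the 67051 gene identifiers in the count tables. They were followed in SH-SY5Y, a human neuroblastoma cell line, by PRO-seq, a run-on method that sequences RNA from engaged polymerases. There were 3 groups of 2 libraries: cells given 0.1 mM MPP+ for 24 h, cells given 0.1 mM MPP+ for 0.5 h, and cells with no treatment. MPP+ is a neurotoxin that inhibits complex I of the respiratory chain. All cells were cultured in high-glucose medium under humidified air with added CO2, so no group was hypoxic by design, and all libraries come from the same established line. Nothing in the labels tells separate cultures from repeat libraries of 1 culture, and the spread behind each p-value may therefore be technical.

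HIF is a transcription factor made of an oxygen-regulated alpha subunit, such as HIF1A or EPAS1, and the constant partner ARNT. When oxygen is present, prolyl hydroxylases of the EGLN family mark the alpha subunit, and the VHL ubiquitin ligase then directs it to destruction. When hydroxylation fails, HIF binds short sites with the letters ACGTG or GCGTG and raises transcription of genes for blood vessel growth, acid handling, glycolysis, collagen modification and mitophagy. Mitochondrial respiration is the main consumer of cellular oxygen.

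What the counts cover bears on several of these genes. Among small genes lying wholly within the introns of 1 gene of the opposite strand, 1931 of 1942 had 0 counts in all 6 libraries, and among those within the introns of 1 gene of the same strand 1044 of 1047 did. Of genes that overlap no other gene, 1048 of 11946 had 0 counts. The counts therefore behave as counts over the whole gene span, introns included, taken without strand and leaving out stretches that 2 genes share. By GENCODE 29 (GRCh38), which is not the authors' release, the span free of other genes was 100% for ADM, NDRG1 and KDM3A, 98.8% for VEGFA, 96.5% for P4HA1, 90.8% for BNIP3, 90.8% for EGLN3, 86.4% for BHLHE40, 76.4% for ANKRD37 and 72.5% for CA9. For BHLHE40 the first 525 bases after the RefSeq start lie inside the antisense gene BHLHE40-AS1, and for CA9 the first 1939 bases lie inside ARHGEF39, so the start-proximal polymerases of both are left out by such counting. The EGLN3 model of GENCODE 29 spans 538.5 kb, of which only 4.99% lies downstream of the RefSeq start, so its count need not follow the usual EGLN3 transcript.

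The promoters of 4 members are shown, which hold the HIF letters in different numbers. ADM, P4HA1 and BHLHE40 were taken for the largest fold changes at 24 h, and BNIP3 for the most matches and nearly the same level in all groups. KDM3A, which had the lowest fold change at 24 h, is not shown. The choice used the measured values, so it is an illustration only. Each line gives the 250 bases before the RefSeq start (GRCh38.p14), from 5' to 3', with ACGTG or GCGTG in capitals where it reads on either strand (CACGT and CACGC on the printed strand are the reverse complements). ADM is at chr11:10304823-10305072 on the plus strand, P4HA1 at chr10:73096867-73097116 on the minus strand, BHLHE40 at chr3:4979187-4979436 on the plus strand and BNIP3 at chr10:131981924-131982173 on the minus strand.
ADM: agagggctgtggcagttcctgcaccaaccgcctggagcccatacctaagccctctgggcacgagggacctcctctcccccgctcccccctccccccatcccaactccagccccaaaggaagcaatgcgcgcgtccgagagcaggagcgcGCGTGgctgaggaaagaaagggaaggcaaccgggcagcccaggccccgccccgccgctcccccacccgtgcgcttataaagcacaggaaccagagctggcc
P4HA1: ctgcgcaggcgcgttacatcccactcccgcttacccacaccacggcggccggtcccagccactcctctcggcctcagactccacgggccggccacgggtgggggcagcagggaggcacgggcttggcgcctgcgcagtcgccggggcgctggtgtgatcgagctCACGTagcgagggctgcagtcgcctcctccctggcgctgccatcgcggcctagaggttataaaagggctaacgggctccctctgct
BHLHE40: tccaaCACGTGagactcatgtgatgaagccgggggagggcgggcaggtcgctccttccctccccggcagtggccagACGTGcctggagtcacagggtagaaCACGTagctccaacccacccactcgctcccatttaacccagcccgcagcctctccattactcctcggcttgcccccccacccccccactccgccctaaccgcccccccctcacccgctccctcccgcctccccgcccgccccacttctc
BNIP3: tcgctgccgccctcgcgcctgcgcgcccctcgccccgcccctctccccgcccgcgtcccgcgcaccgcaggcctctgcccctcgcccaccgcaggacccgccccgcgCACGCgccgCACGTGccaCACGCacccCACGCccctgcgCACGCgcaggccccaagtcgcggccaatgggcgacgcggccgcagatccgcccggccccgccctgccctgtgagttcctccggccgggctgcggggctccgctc

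Over these 250 bases ADM held 1 match, P4HA1 1, BHLHE40 4 and BNIP3 6, where a palindromic CACGTG counts on both strands. RefSeq promoters were at hand for 8 of the 10 members, all but VEGFA and NDRG1. In the window from 250 bases before to 50 after the start, ACGTG stood in 5 of the 8 (62.5%), against 24.9% of 27305 genes with a promoter. GCGTG stood in 3 of 8 (37.5%), against 40.6% of those genes, and at least 1 of the 2 forms stood in 7 of 8 (87.5%), against 52.4%. EGLN3 alone of the 8 held neither in this window. A match is a string of letters and not a bound site.

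In untreated cells the members spanned a wide range of nascent transcription. Levels are given as CPM, counts scaled to library size with TMM factors, and between genes as CPM per kb of the span free of other genes in GENCODE 29. By that measure ADM stood highest at 20.3 ± 0.408 CPM per kb (SD, n = 2), followed by ANKRD37 at 13.8 ± 0.587, VEGFA at 6.96 ± 0.542, BNIP3 at 4.72 ± 0.541 and KDM3A at 2.16 ± 0.382. P4HA1 at 1.14 ± 0.00485, CA9 at 1.13 ± 0.0266 and NDRG1 at 1.11 ± 0.0425 CPM per kb were not separated beyond their spread. EGLN3 had 0.241 ± 0.00683 over its long model, and BHLHE40 was lowest at 0.0379 ± 0.0226 CPM per kb. This order holds only as far as GENCODE 29 describes the stretches counted, since the authors' annotation is not known. The oxygen-sensing gene EGLN1, for example, is 100% free in GENCODE 29 but had only 0 to 3 counts a library.

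After 24 h of MPP+ the members with the largest fold changes were BHLHE40, ADM and P4HA1, each with both libraries above both untreated ones. None of the 10 passed edgeR's quasi-likelihood test with Benjamini-Hochberg adjustment over 23133 genes. That comparison called 0.0692% of all genes, 0 higher and 16 lower, and DESeq2 called 0 of the 10 as well. Without the filter on low counts, edgeR gave adjusted p = 3.95e-06 for ADM, 0.0257 for P4HA1 and 0.0400 for BHLHE40. With the replicate number as a block, edgeR gave 0.000394 for ADM, 0.00252 for P4HA1 and 0.0342 for BHLHE40. The labels do not say what that number stands for, so the calls depend on an unstated pairing. Both settings also called far more of all genes than the main fit, higher and lower, with the numbers given under the dependence on processing. The log2 fold change of ADM was 0.77 without the filter and 0.74 with the block, against 0.76 in the main fit. Under the other alternatives without a replicate block, the adjusted p lay between 0.18 and 0.944 for ADM, between 0.336 and 0.944 for P4HA1 and between 0.34 and 0.9999 for BHLHE40. At an unadjusted p under 0.05, 4 members were higher (BHLHE40, P4HA1, ADM and EGLN3) and 0 lower, where 4.01% and 4.09% of all tested genes were. EGLN3 is among the 4 by a count that need not follow its usual transcript. In 6 of 10 members both 24 h libraries lay above both untreated libraries, against 18.8% of all genes, and in 0 of 10 did both lie below, against 18.5%. BHLHE40 passed the filter on low counts only through the MPP+ libraries and had to be higher in them, and without it these counts were 3 of 9 at the unadjusted p and 5 of 9 without overlap. The median log2 fold change of the 10 was 0.26, and 0.23 without BHLHE40, against 0.0023 over all tested genes, and 7 of 10 were above 0, as were 50.4% of all tested genes. Since the members were chosen with earlier results of these data known, these shares describe them and are not independent support. In these bulk libraries more cells with an active gene and more polymerase per cell cannot be told apart.

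After 0.5 h the log2 fold changes over untreated cells ran from -0.05 for KDM3A to 2.35 for BHLHE40. None of the 10 passed the same test. That comparison called 0.0735% of all genes, 0 higher and 17 lower, and DESeq2 called 0 of the 10 as well. At an unadjusted p under 0.05, 1 member was higher and 0 were lower, where 1.05% and 1.41% of all genes were. That member was BHLHE40, whose direction the filter fixed, so 0 of the other 9 were called. Both 0.5 h libraries lay above both untreated libraries in 5 of 10 members (12.9% of all genes) and below in 0 of 10 (14.4% of all genes). Without BHLHE40 the first of these was 4 of 9 (P4HA1, CA9, EGLN3 and ANKRD37). Margins were small for P4HA1, with the lower 0.5 h library at 100.5 CPM against 99.3 CPM in the upper untreated one. For ANKRD37 these were 50.2 and 49.9 CPM. The median log2 fold change was 0.12, and 0.10 without BHLHE40, against 0.0082 over all genes. It was 0.035 without the first 0.5 h library. Of the 10 members 8 had a log2 fold change above 0, as did 52.1% of all tested genes. The comparisons of 0.5 h and 24 h share the untreated libraries, so their values are given side by side and not as independent support.

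**Figure D1:**
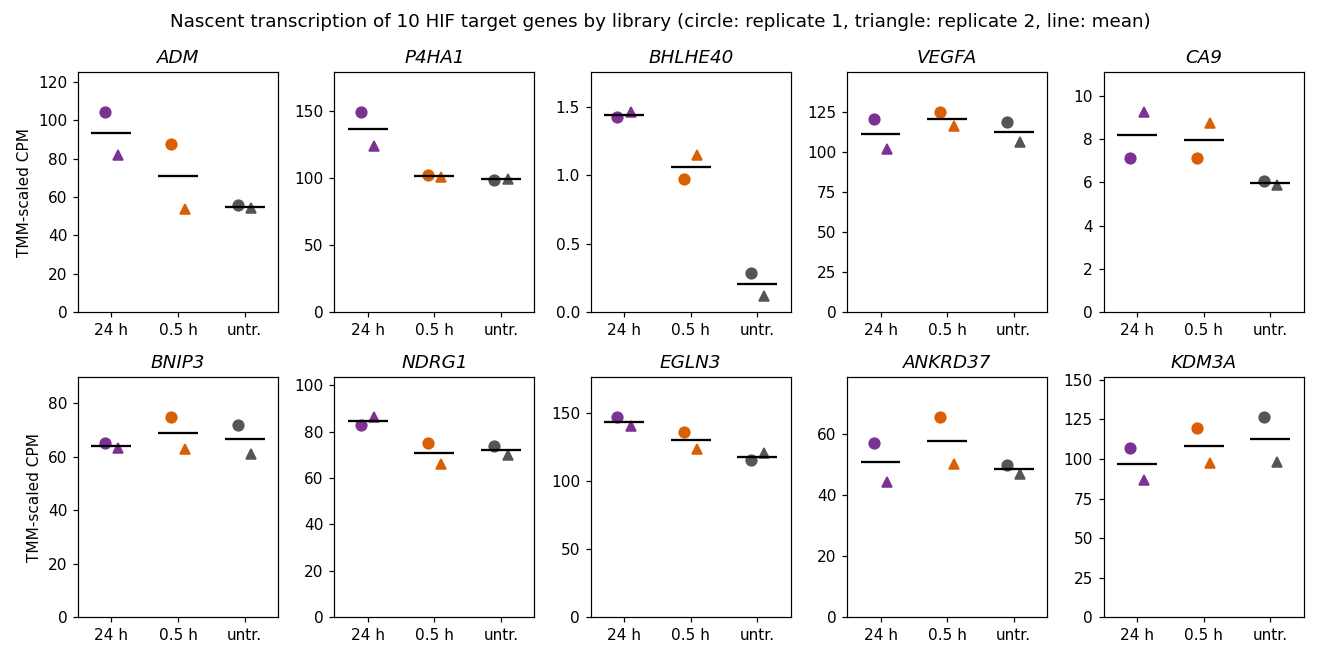
TMM-scaled CPM (vertical axis, linear, from 0) of each of the 10 HIF target genes in cells given MPP+ for 24 h, for 0.5 h and in untreated cells. Circles are replicate 1, triangles replicate 2 and lines the mean of 2 libraries. BHLHE40 reaches at most 1.46 CPM in any library, and ADM shows the 0.5 h replicates apart at 88.0 and 54.0 CPM.

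Of the secreted factors, ADM encodes adrenomedullin, a vasodilator peptide, and lies on chromosome 11 from 10304680 to 10307397 on the plus strand, with no other annotated gene inside its span. It had 104 and 82.0 CPM in the 24 h libraries and 88.0 and 54.0 CPM in the 0.5 h libraries, against 55.9 and 54.3 CPM in untreated cells. Both 24 h libraries were above both untreated ones, while the second 0.5 h library was at the untreated level. The log2 fold change was 0.76 ± 0.21 at 24 h (SE, n = 2 each, unadjusted 95% interval 0.30 to 1.23, edgeR, adjusted p = 0.519), or 1.70-fold. At 0.5 h it was 0.37 ± 0.21 (interval -0.09 to 0.84, adjusted p = 0.9997), and it was -0.03 without the first 0.5 h library and 0.67 without the second.

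VEGFA, the growth factor that drives blood vessel formation, is a textbook HIF target and lies on chromosome 6 from 43770184 to 43786487. It had 120.1 and 102 CPM at 24 h and 125 and 116 CPM at 0.5 h, against 118 and 106 CPM in untreated cells. The groups overlapped at both times. Its log2 fold change at 24 h was -0.01 ± 0.12, with an interval of -0.28 to 0.25, which leaves out a change of the size fitted for ADM. At 0.5 h it was 0.10 ± 0.12.

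Of the enzymes, P4HA1 is the catalytic subunit of the collagen prolyl hydroxylase and lies on chromosome 10 from 73007217 to 73096974 on the minus strand. It had 149 and 124 CPM at 24 h and 103 and 100.5 CPM at 0.5 h, against 98.7 and 99.3 CPM in untreated cells. The 24 h libraries stood furthest apart. Both 0.5 h libraries were also above both untreated ones, but all 4 lay within a few CPM of each other. The log2 fold change at 24 h was 0.47 ± 0.11 (interval 0.22 to 0.72, edgeR, adjusted p = 0.439), or 1.38-fold, and at 0.5 h 0.04 ± 0.11 (interval -0.22 to 0.29). Set against the 0.5 h libraries, the 24 h libraries gave 0.43 ± 0.11 (unadjusted p = 0.00343, adjusted p = 0.754, edgeR). With the replicate number as a block, the adjusted p of this last comparison was 0.00891 (edgeR).

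CA9, a carbonic anhydrase of the cell surface that hydrates CO2 and helps to export acid, lies on chromosome 9 from 35673856 to 35681159. It had few counts, 60 and 57 at 24 h and 81 and 76 at 0.5 h, against 42 and 50 in untreated cells. That is 7.11 and 9.25 CPM at 24 h and 7.13 and 8.74 CPM at 0.5 h, against 6.06 and 5.86 CPM in untreated cells. All 4 MPP+ libraries were above both untreated ones, with log2 fold changes of 0.44 ± 0.25 at 24 h (interval -0.11 to 0.99) and 0.41 ± 0.24 at 0.5 h (interval -0.13 to 0.94). ARHGEF39, the gene that covers the start of CA9 from the other strand, had log2 fold changes of 0.06 ± 0.19 at 24 h and 0.28 ± 0.18 at 0.5 h, and its part in the CA9 counts was not tested.

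Of the regulators, BHLHE40 encodes a helix-loop-helix repressor of transcription, and lies on chromosome 3 from 4979116 to 4985323. It had 12 and 9 counts at 24 h and 11 and 10 counts at 0.5 h, against 2 and 1 counts in untreated cells, so it entered the test only through the MPP+ libraries and had to be higher there. In CPM these were 1.42 and 1.46 at 24 h and 0.969 and 1.15 at 0.5 h, against 0.289 and 0.117 in untreated cells. From the pooled counts the ratio was 7.41 at 24 h (21 against 3 counts, exact 95% interval 2.21 to 38.8) and 5.39 at 0.5 h (21 against 3 counts, 1.61 to 28.2), which covers counting error only. The filter fixed the direction, so these intervals do not test it. Replicate pairs over all genes differed by more than counting error, so the intervals are too narrow for the spread between libraries. The fitted log2 fold changes, which depend on the prior count, were 2.80 ± 0.61 at 24 h (edgeR, adjusted p = 0.357) and 2.35 ± 0.62 at 0.5 h (adjusted p = 0.9997). All 4 MPP+ libraries stood above the upper untreated library, and the 24 h libraries did not differ from the 0.5 h libraries past the threshold (0.45 ± 0.41).

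The antisense neighbour BHLHE40-AS1 had 8.29 and 14.6 CPM at 24 h and 8.45 and 13.0 CPM at 0.5 h, against 10.4 and 12.5 CPM in untreated cells. Its groups overlapped, with log2 fold changes of -0.03 ± 0.31 at 24 h and -0.11 ± 0.30 at 0.5 h. How much of BHLHE40 the authors' own annotation left free of other genes is not known. The glycolytic enzyme gene ALDOA also had few counts, 0 to 3 a library, but GENCODE 29 leaves 0.588% of its span free, against 86.4% for BHLHE40. The cause of the low BHLHE40 counts was not tested.

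EGLN3 is an oxygen-sensing prolyl hydroxylase that HIF itself induces, a feedback on the pathway. It had 147 and 139.9 CPM at 24 h and 136 and 124 CPM at 0.5 h, against 115 and 120.2 CPM in untreated cells. Every MPP+ library was above both untreated ones, by a log2 fold change of 0.28 ± 0.10 at 24 h (interval 0.05 to 0.51, edgeR, adjusted p = 0.589) and 0.14 ± 0.10 at 0.5 h (interval -0.09 to 0.37). The count is spread over the long model described above.

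KDM3A, a histone lysine demethylase that HIF induces, lies on chromosome 2 from 86440647 to 86492716. It had 107 and 86.7 CPM at 24 h and 119.5 and 97.3 CPM at 0.5 h, against 126 and 98.2 CPM in untreated cells. The groups overlapped, and the untreated pair was itself far apart. The log2 fold change was -0.21 ± 0.16 at 24 h (interval -0.57 to 0.15) and -0.05 ± 0.16 at 0.5 h (interval -0.40 to 0.31).

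Of the members with roles at mitochondria or in stress, BNIP3 encodes a receptor of the outer mitochondrial membrane that marks mitochondria for autophagy, and lies on chromosome 10 from 131966455 to 131982013. It had 65.2 and 63.2 CPM at 24 h and 74.9 and 62.9 CPM at 0.5 h, against 72.0 and 61.2 CPM in untreated cells. The groups overlapped, with log2 fold changes of -0.05 ± 0.12 at 24 h (interval -0.33 to 0.23) and 0.05 ± 0.12 at 0.5 h (interval -0.22 to 0.33).

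NDRG1, a stress-responsive gene described as a metastasis suppressor in several tumours, had 82.8 and 86.2 CPM at 24 h and 75.3 and 66.1 CPM at 0.5 h, against 73.9 and 70.0 CPM in untreated cells. Both 24 h libraries were above all 4 others. Its log2 fold change was 0.23 ± 0.10 at 24 h (interval -0.0039 to 0.47, edgeR, adjusted p = 0.621) and -0.02 ± 0.10 at 0.5 h, and the 24 h libraries against the 0.5 h libraries gave 0.25 ± 0.10 (unadjusted p = 0.0355, adjusted p = 0.768, edgeR).

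ANKRD37, an ankyrin repeat protein gene that HIF induces, lies on chromosome 4 from 185396021 to 185400628 and overlaps UFSP2 away from its start. It had 57.2 and 44.3 CPM at 24 h and 65.5 and 50.2 CPM at 0.5 h, against 49.9 and 47.0 CPM in untreated cells. The 24 h libraries straddled the untreated ones. The log2 fold change was 0.07 ± 0.16 at 24 h (interval -0.29 to 0.44) and 0.26 ± 0.16 at 0.5 h (interval -0.09 to 0.62).

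**Figure D2:**
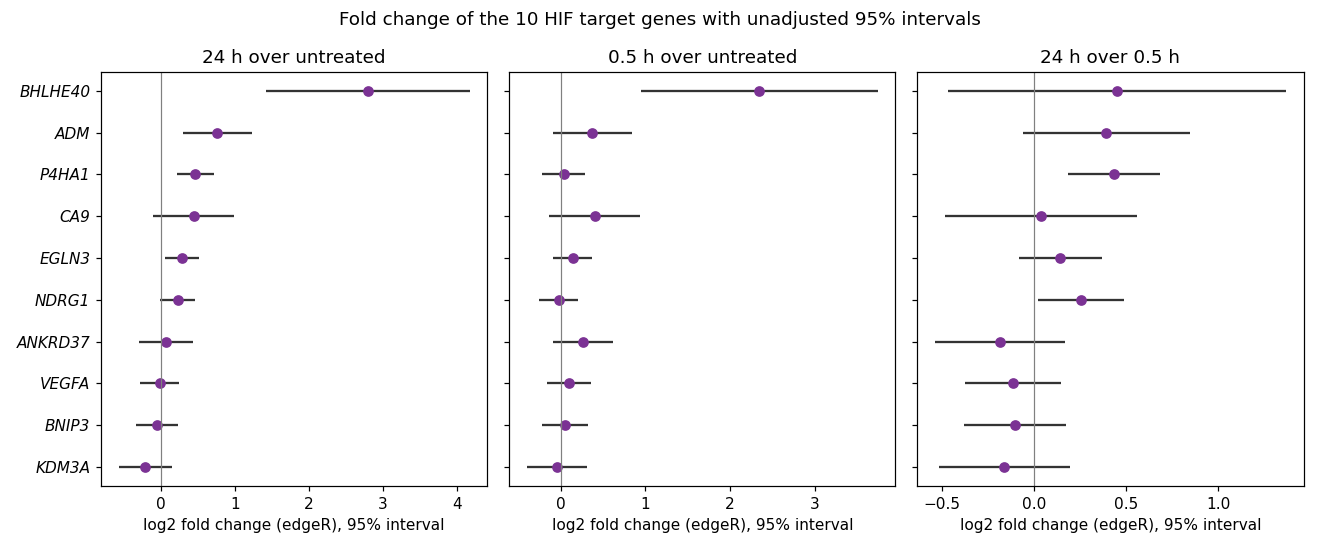
Log2 fold change of each member with its unadjusted 95% interval (edgeR) for 24 h over untreated, 0.5 h over untreated and 24 h over 0.5 h. At 24 h the intervals of ADM, P4HA1 and EGLN3 lie above 0, and no adjusted p is under 0.05. The interval of BHLHE40 (1.42 to 4.17) does too, but BHLHE40 passed the filter only through the MPP+ libraries and had to be higher.

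The difference between the 2 exposure times was tested directly. No gene passed when 24 h was set against 0.5 h in the fit without a replicate block (0% of 23133 genes by edgeR, with 648 genes higher and 838 lower at an unadjusted p under 0.05, and 0 by DESeq2). P4HA1 and NDRG1 had unadjusted p under 0.05, both higher at 24 h, where 2.8% of all genes were higher at that level, and 0 members were lower, where 3.62% of all genes were. The 24 h libraries both lay above both 0.5 h libraries in 4 of 10 members (P4HA1, BHLHE40, NDRG1 and EGLN3), against 19.4% of all genes, and below in 0 of 10, against 19% of all genes. The median log2 fold change was 0.09, and 0.04 without BHLHE40, with 6 of 10 above 0, as were 50.5% of all genes.

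**Figure D3:**
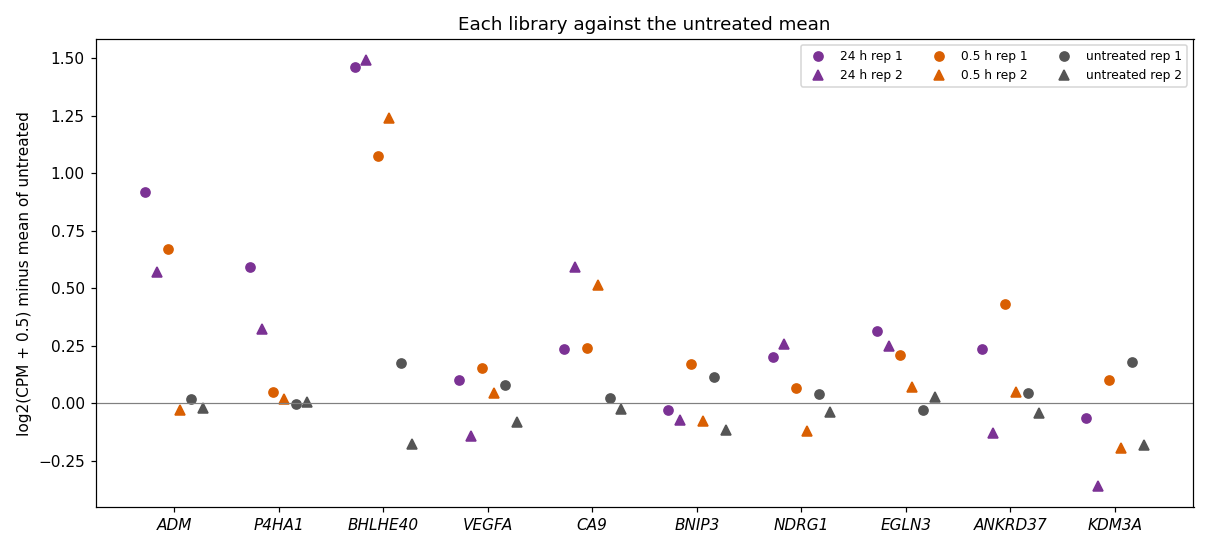
Log2(CPM + 0.5) of each library minus the mean of the untreated libraries, for the 10 members on a shared scale, with circles for replicate 1 and triangles for replicate 2. The median over members is 0.24 and 0.25 in the 24 h libraries, 0.19 and 0.03 in the 0.5 h libraries and 0.04 and -0.04 in the untreated libraries. The untreated values mirror each other by construction, since their own mean was subtracted.

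The genes that make and restrain HIF did not pass the test at either time. Of 16 such genes 13 were tested, with a median log2 fold change of 0.03 at 24 h and -0.01 at 0.5 h. At an unadjusted p under 0.05, 0 of the 13 were higher and 2 lower at 24 h, where 4.01% and 4.09% of all genes were, and 0 in either direction at 0.5 h, where 1.05% and 1.41% were. Both 24 h libraries lay above both untreated ones in 1 of the 13 (18.8% of all genes) and below in 4 of the 13 (18.5%). DESeq2 called 0 genes of this or any other list. HIF1A itself had 126 and 98.7 CPM at 24 h and 123 and 91.5 CPM at 0.5 h, against 119.5 and 97.7 CPM in untreated cells (0.05 ± 0.17 at 24 h and -0.01 ± 0.17 at 0.5 h). EPAS1, the other main alpha subunit, had 0.13 ± 0.16 at 24 h and 0.14 ± 0.16 at 0.5 h, and ARNT, the constant partner, 0.03 ± 0.16 and -0.04 ± 0.16. VHL had -0.21 ± 0.17 at 24 h and -0.01 ± 0.16 at 0.5 h, and HIF1AN, the asparagine hydroxylase that blocks HIF activity, -0.01 ± 0.10 and -0.0099 ± 0.10. GENCODE 29 leaves 37.4% of the HIF1A span free of other genes. Transcription of HIF1A says nothing of the protein, which is controlled by its destruction.

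The smallest p-values of that list at 24 h belonged to ARNT2, the neuronal partner of HIF alpha subunits, at 116 and 108 CPM against 144 and 134 CPM in untreated cells (-0.31 ± 0.10, adjusted p = 0.558, edgeR), and to the coactivator CREBBP at -0.26 ± 0.10 (adjusted p = 0.602). HIF3A had 0.36 ± 0.24 at 24 h, and ELOC, a subunit of the VHL ligase, 0.14 ± 0.10 at 24 h and 0.19 ± 0.10 at 0.5 h. CREBBP had -0.16 ± 0.10 at 0.5 h. EGLN1, EGLN2 and CITED2 were not tested, with at most 3 counts in a library. GENCODE 29 leaves none of the EGLN2 and CITED2 spans free of other genes, but all of the EGLN1 span.

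Glycolytic HIF targets gave a median near that of all genes, 0.02 at 24 h and 0.0088 at 0.5 h over 21 tested of 23 genes, with 12 above 0 at 24 h, and none passed at either time. At an unadjusted p under 0.05, 1 of the 21 was higher and 1 lower at 24 h, near the 4.01% and 4.09% of all genes, and 0 in either direction at 0.5 h, where 1.05% and 1.41% of all genes were. The smallest p-values at 24 h were those of the phosphofructokinase gene PFKL at -0.29 ± 0.11 and the triose phosphate isomerase gene TPI1 at 0.28 ± 0.11 (adjusted p = 0.595 each, edgeR). TPI1 had 117 and 103 CPM at 24 h against 92.1 and 89.9 CPM in untreated cells. PFKFB4, which makes an activator of glycolysis, had 0.22 ± 0.12 and the glucose phosphate isomerase gene GPI -0.13 ± 0.11. At 0.5 h GAPDH had 0.30 ± 0.16 and the glucose transporter gene SLC2A3 0.56 ± 0.40. Both 24 h libraries lay above both untreated ones in 4 of the 21 (18.8% of all genes) and below in 2 of the 21 (18.5%). ALDOA and ALDOC were not tested.

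Other HIF targets had a median log2 fold change of 0.11 at 24 h and 0.0090 at 0.5 h over 30 tested of 32 genes. None passed at either time. At an unadjusted p under 0.05, 5 of the 30 were higher and 0 lower at 24 h, where 4.01% and 4.09% of all genes were. At 0.5 h 1 was higher and 0 lower, where 1.05% and 1.41% of all genes were. In the same list 12 of 30 had both 24 h libraries above both untreated ones, against 18.8% of all genes, and 4 of 30 had both below, against 18.5%. At 0.5 h these counts were 3 above and 3 below, against 12.9% and 14.4% of all genes. This list too was chosen with earlier results of these data known, so its shares are not independent support. STC2, a secreted glycoprotein gene, had 114 and 109 CPM at 24 h against 87.2 and 69.3 CPM in untreated cells (0.51 ± 0.16, adjusted p = 0.544, edgeR). DDIT4, an inhibitor of mTOR signalling, had 136 and 130.0 CPM at 24 h against 105 and 105 CPM in untreated cells (0.34 ± 0.12, adjusted p = 0.574, edgeR). LOX, the collagen cross-linking enzyme, had 9.36 and 9.25 CPM at 24 h and 10.9 and 9.08 CPM at 0.5 h, against 5.34 and 6.45 CPM in untreated cells, or 0.65 ± 0.23 at 24 h and 0.76 ± 0.22 at 0.5 h.

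The remaining 2 genes that the naming rule took from that list were PPP1R3C, a glycogen-targeting phosphatase subunit, and CCNG2, a cyclin of arrested cells. PPP1R3C had 24.5 and 15.9 CPM at 24 h against 12.8 and 11.7 CPM in untreated cells (0.73 ± 0.26 at 24 h and -0.07 ± 0.26 at 0.5 h). CCNG2 had 0.0016 ± 0.10 at 24 h and -0.19 ± 0.10 at 0.5 h. HILPDA, a lipid droplet protein gene, and BHLHE41, the paralog of BHLHE40, were not tested, with at most 2 counts in a library.

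**Figure D4:**
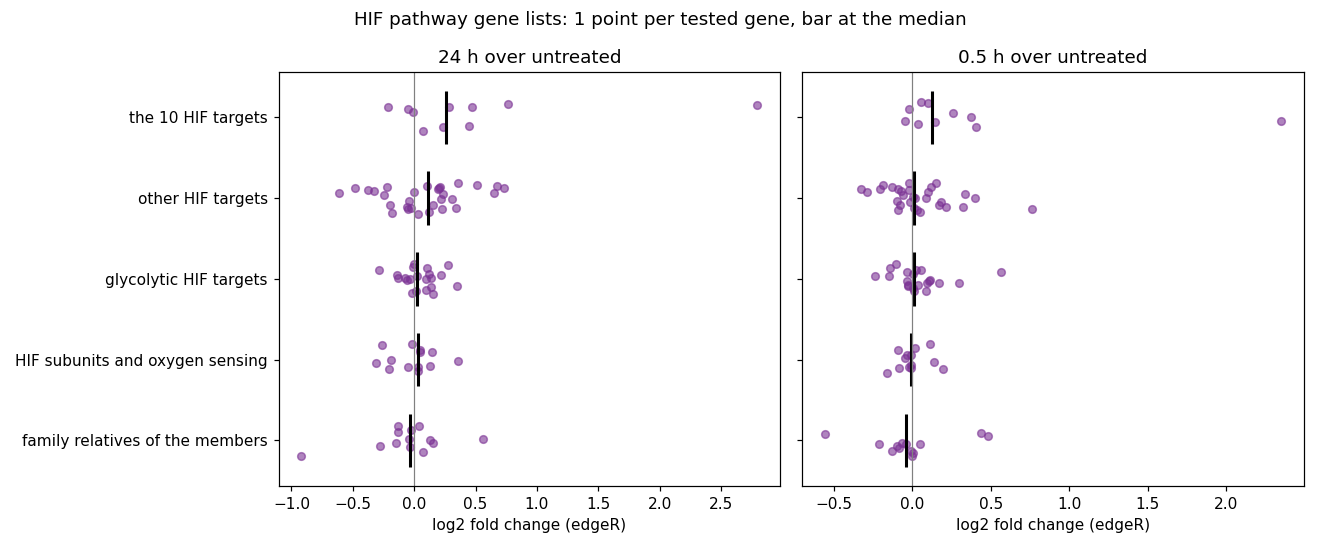
Log2 fold change (edgeR) at 24 h and 0.5 h over untreated for every tested gene of 5 lists, 1 point per gene with a small vertical scatter, and a bar at the median. At 24 h the medians are 0.26 for the 10 targets, 0.11 for other HIF targets, 0.02 for glycolytic targets, 0.03 for HIF subunits and oxygen sensing and -0.04 for family relatives.

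The libraries held 5983066 to 11707612 assigned counts. The labelled cell type was checked by its markers: 10 of 11 adrenergic neuroblast genes were tested, with summed levels of 3318 and 2599 CPM at 24 h and 3400 and 2872 CPM at 0.5 h, against 3524 and 2972 CPM in untreated cells, and tyrosine hydroxylase, TH, had only 2 to 10 counts a library. Of the 11 markers of mesenchymal neuroblastoma cells 10 were tested, with sums of 1642 and 1319 CPM at 24 h and 1894 and 1434 CPM at 0.5 h, against 1934 and 1446 CPM in untreated cells, and their defining factor PRRX1 had 4 to 13 counts a library. In both lists the ranges of the sums overlapped between groups, and no gene passed. TWIST1 made up most of the mesenchymal sum, with 1465 and 1150.1 CPM at 24 h and 1696 and 1285 CPM at 0.5 h, against 1759 and 1289.9 CPM in untreated cells. By gene, the median log2 change over the mesenchymal list was 0.24 for 24 h over 0.5 h with 8 of 10 above 0, 0.02 for 24 h over untreated with 6 of 10, and -0.04 for 0.5 h over untreated with 4 of 10. CD44, FOSL1 and WWTR1 had both 24 h libraries above both untreated ones, at 0.41 ± 0.22, 0.39 ± 0.22 and 0.22 ± 0.14. These 3 of 10 (18.8% of all genes) were named after their values were seen, and 0 of 10 had both below (18.5%). In the same comparison TWIST1 (-0.22 ± 0.20), SNAI2 (-0.15 ± 0.31), YAP1 (-0.14 ± 0.23) and MEOX2 (-0.06 ± 0.50) were below 0, with groups that overlapped. The adrenergic list had medians of -0.05, -0.09 and -0.04 in the same order of comparisons, with 3, 2 and 2 of 10 above 0. The part of either list in the results was not tested. The authors' deposited tables of differential genes listed 0 of the 10 members among 24 genes at 24 h and 17 genes at 0.5 h.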

How the data were processed

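The deposited files hold raw counts per gene for each library. As tools, the submitters' processing notes name featureCounts 2.0.1, Bowtie2 2.4.2, DESeq2 2.11.40.6, cutadapt 1.16.5 and SAMtools 1.13, and as build hg38. No source used here states the annotation or how strand and overlapping genes were counted. Per the file headers, the authors' deposited tables give a Wald score, a p-value and a log2 fold change for each gene, used here only to see whether members were listed.

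Identifiers were named from a gene name table (60481) or GENCODE 29 (213). Counts were filtered by filterByExpr, TMM-scaled and fitted over all 6 libraries in edgeR 4.0.16 (quasi-likelihood, R 4.3.3), 1 coefficient per group, with 3 residual degrees of freedom. Tests were two-sided and adjusted by Benjamini-Hochberg over 23133 genes at 0.05. A 95% interval is unadjusted. The pipeline was tested on simulated data. Alternatives were DESeq2 1.42.0, other scalings and filters, a replicate block, fits of only the groups compared, and each library left out. The members and lists were chosen with earlier results of these data known. All members were named, as were 6 HIF genes and, per other list, the 4 smallest p at 24 h and 2 at 0.5 h. Intervals on counts cover counting error only, since no molecular identifiers are named in the labels. Replicate pairs differed by more than counting error (chi-square per degree of freedom 4.13 to 8.97).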

Additional observations from a re-analysis of the deposited data

How the results depend on the processing

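The median log2 fold change of the 10 members stayed within the spread between replicates (0.10) under every alternative run, at 0.04 to 0.15 for 24 h over 0.5 h, 0.23 to 0.27 for 24 h over untreated and 0.03 to 0.19 for 0.5 h over untreated. The main medians for 24 h over 0.5 h (0.09) and 0.5 h over untreated (0.12) were themselves about as large as that spread. For those 2 comparisons the check therefore says little. Leaving out BHLHE40 was chosen after seeing the data. Without any filter on low counts, ADM (adjusted p = 3.95e-06), P4HA1 (0.0257) and BHLHE40 (0.04) passed at 24 h. The cause was not tested. That setting called 130 genes higher and 115 lower at 24 h, 20 and 46 at 0.5 h, and 29 and 44 for 24 h over 0.5 h. DESeq2 called 13 genes higher at 24 h, and library totals alone 1. With the replicate number as a block, ADM (adjusted p = 0.000394), P4HA1 (0.00252) and BHLHE40 (0.0342) passed at 24 h and P4HA1 (0.00891) for 24 h over 0.5 h, with 301 genes called higher and 384 lower at 24 h, 15 and 42 at 0.5 h, and 116 and 296 for 24 h over 0.5 h. The labels do not say what the number stands for. Differences between replicates 1 and 2 correlated across genes between groups at r = 0.29 to 0.33, and in 5 of 10 members (21.7% of all genes) replicate 1 was above replicate 2 in all 3 groups.

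Leaving out 1 library, genes called lower ranged from 8 (without the first untreated library) to 12 at 24 h and from 9 (without the first 0.5 h library) to 15 at 0.5 h, and genes called higher at 24 h from 0 to 1. The sign turned at 0.5 h for ADM (-0.026 to 0.67), BNIP3 (-0.080 to 0.17), NDRG1 (-0.12 to 0.063) and KDM3A (-0.23 to 0.14). At 24 h it turned for VEGFA (-0.14 to 0.098), BNIP3 (-0.18 to 0.067) and ANKRD37 (-0.13 to 0.24), and for 24 h over 0.5 h for CA9 (-0.15 to 0.23), BNIP3 (-0.22 to 0.029) and ANKRD37 (-0.39 to 0.021). BHLHE40 could not be fitted where a mean of 50 counts was required. BHLHE40 had 1 to 12 counts a library, which limits the precision of its values. In the 250 bases before the start the members' motif counts were the same, against 21.7% (ACGTG), 36.2% (GCGTG) and 47.4% (either) of all genes.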

Other observations

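Relatives of the members in sequence or function, 13 tested of 15, had a median log2 fold change of -0.04 at 24 h and -0.04 at 0.5 h, and none passed the edgeR test at either time. At an unadjusted p under 0.05, 0 of the 13 were higher and 1 was lower at 24 h, where 4.01% and 4.09% of all genes were, and 0 in either direction at 0.5 h, where 1.05% and 1.41% were. ADM2, a peptide of the adrenomedullin family, had 1.42 and 0.974 CPM at 24 h and 2.47 and 2.18 CPM at 0.5 h, against 2.45 and 2.23 CPM in untreated cells (-0.92 ± 0.37 at 24 h, unadjusted p = 0.0343, adjusted p = 0.602, edgeR). It thus stood on the other side of 0 from ADM at 24 h, without passing. RAMP2, a subunit of the adrenomedullin receptor, had 8.63 and 8.97 CPM at 0.5 h against 5.63 and 6.92 CPM in untreated cells (0.48 ± 0.22), and RAMP3 had 0.56 ± 0.47 at 24 h. GENCODE 29 leaves 38.8% of the RAMP2 span free of other genes. KDM3B, the paralog of KDM3A, had -0.15 ± 0.10 and P4HB, the partner subunit of P4HA1, -0.14 ± 0.10 at 24 h. NDRG3 had -0.22 ± 0.13 at 0.5 h. CALCRL, the receptor that binds adrenomedullin together with these subunits, had 0 counts in all libraries, and GENCODE 29 leaves 0% of its span free of other genes.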
